A study of Arabidopsis thaliana with 32 samples.

Results

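At 8 d, 34 loci had a difference between sku5 and wild-type roots that pointed one way in spaceflight and the other way on the ground. They were chosen by their genotype ratios: the authors marked them significant in both genotype comparisons at 8 d, and the ratio of sku5 over WS was above 1 in one environment and below 1 in the other. The authors' deposited tables list 1409 loci for genotype in spaceflight and 525 on the ground at 8 d, and 156 loci stand in both. Of these 156 loci, 120 differed in the same direction in both environments and 36 in opposite directions, and AT1G43800 and AT3G03270 were left out by the choice of genes. The 34 reversed loci are part of 4882 loci listed in any table, and the ratios that chose them are given as a description.

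The sku5 mutant lacks full function of SKU5, a membrane-anchored glycoprotein of the plasma membrane and cell wall that is related to multicopper oxidases. Roots of sku5 skew on tilted plates more than wild-type roots do. Spaceflight removes the gravity vector that roots use for orientation, while light from above still gives a direction. A genotype difference that changes direction between environments means that each genotype has the higher level in one of them.

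The tissue was whole Arabidopsis thaliana roots, dissected from seedlings preserved in RNAlater. Seedlings of the sku5 mutant and of its wild-type reference WS grew on upright plates of solid medium, on orbit in the Veggie plant growth unit or, as the control, in the same kind of hardware on Earth inside a chamber set to the station's recorded conditions. The 4 groups at 8 d are sku5 in spaceflight, WS in spaceflight, sku5 on the ground and WS on the ground, and the same 4 groups exist at 4 d. Each group has 4 samples, and its samples were pools of 2 to 3 roots (8 d) or of 5 to 8 roots (4 d). No transgene or treatment beyond the growth environment is given in the labels for any group.

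The 11 deposited tables give 1 value per group in FPKM, which is a read number scaled by transcript length and library size, so no spread between samples can be computed. They list only loci with a q-value, a p-value adjusted for the number of loci tested, under 0.05 in the authors' Cuffdiff test. A locus that is not listed was either not tested or not called, and its values are not known here. A rough standard error (SE) of each log2 ratio was had by dividing it by the authors' test statistic, and no other measure of precision was at hand. Library depths are unknown. SKU5 itself checked the genotype labels: in the authors' deposited tables it stood at 14.2 FPKM in sku5 and 61.9 FPKM in WS in spaceflight, and at 23.5 FPKM in sku5 and 78.6 FPKM in WS on the ground. In whole roots, fewer cells of a type and less RNA per cell cannot be told apart, here and in every result below.

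Of the 34 reversed loci, 21 were lower in sku5 than in WS in spaceflight and higher on the ground, and 13 were higher in sku5 in spaceflight and lower on the ground. By the rule every one of them is called in both tables, against 28.9% of all listed loci for genotype in spaceflight (11.9% higher and 17% lower in sku5) and 10.8% on the ground (6.51% higher and 4.24% lower). Most differences were small: 30 of the 34 loci in the authors' deposited tables differed by under 2-fold in both environments, 2 by at least 2-fold in one and 2 by at least 2-fold in both. The 21 loci had a median difference of 1.45-fold in spaceflight and 1.52-fold on the ground. For the 13 loci the medians were 1.40-fold in spaceflight and 1.34-fold on the ground. The rough SE and the authors' q-values did not match. By this SE, 17 spaceflight ratios and 16 ground ratios were under 2 of their SE although the authors called them, and 10 loci had both ratios over 2 SE. The smallest was 1.47 of its SE, for XGD1 in spaceflight, with a q-value of 0.0480. The SE is therefore no calibrated error, and the precision of single ratios cannot be settled from 1 value per group. Nearest to the edge of the rule, the smallest log2 ratio of a reversed locus had a size of 0.31, for AT5G60390 on the ground, and the smallest among the 120 loci with the same direction had a size of 0.29, for AT5G47930 on the ground.

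**Figure D1:**
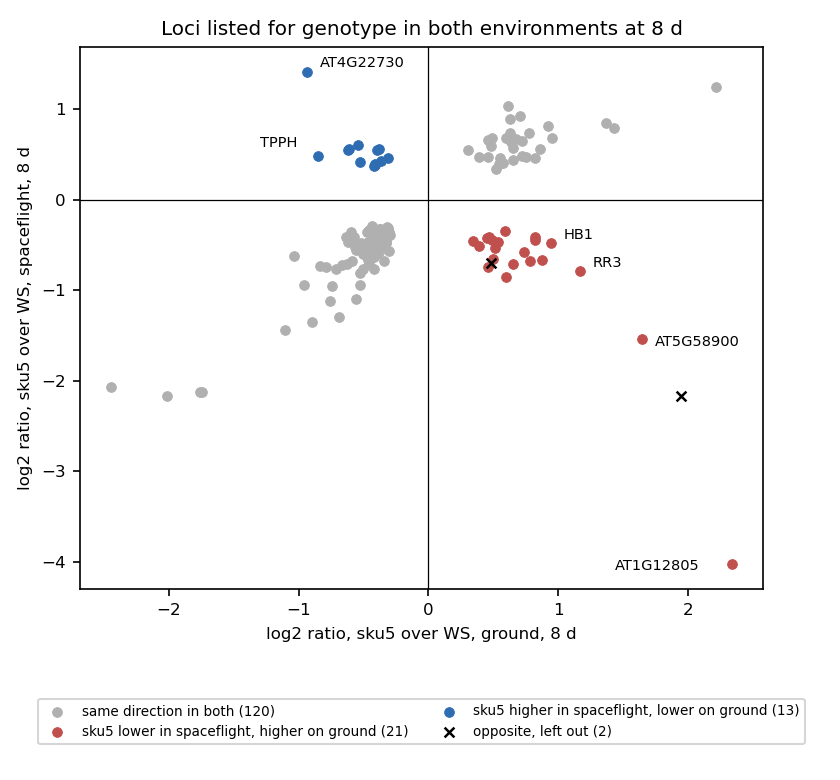
Log2 ratio of sku5 over WS at 8 d in spaceflight (vertical axis) against that on the ground (horizontal axis) for the 156 loci listed in both of the authors' deposited tables, 1 point per locus. The 21 loci lower in sku5 in spaceflight and higher on the ground lie at the lower right, the 13 loci of the other direction at the upper left, and the 120 loci with the same direction lie at the upper right and lower left.

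The largest reversal belonged to AT1G12805, annotated as a nucleotide binding protein. In the authors' deposited tables it stood at 1.80 FPKM in sku5 and 29.3 FPKM in WS in spaceflight, and at 22.7 FPKM in sku5 and 4.49 FPKM in WS on the ground. The low groups were thus sku5 in spaceflight and WS on the ground. The authors' deposited tables give log2 ratios of -4.03 (SE 1.08, q = 0.00322) in spaceflight and 2.34 (SE 0.87, q = 0.00381) on the ground. The authors place the gene at 4343267 to 4343790 of chromosome 1, and the sources used here do not name the genome build.

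Next came AT5G58900, a homeodomain-like transcriptional regulator on chromosome 5 at 23369643 to 23371944. It had 13.7 FPKM in sku5 and 39.9 FPKM in WS in spaceflight, against 32.2 FPKM in sku5 and 10.3 FPKM in WS on the ground in the authors' deposited tables. AT1G12805 and AT5G58900 were the genes past 2-fold in both environments. The log2 ratios of AT5G58900 in the authors' deposited tables were -1.55 (SE 0.61, q = 0.00182) in spaceflight and 1.65 (SE 0.93, q = 0.0319) on the ground. The ground value thus had the larger rough SE and the larger q-value.

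The other loci are given by role. Among signalling genes, RR3 (AT2G41310, on chromosome 2), a type-A response regulator that cytokinin induces and that dampens cytokinin signalling, had 16.4 FPKM in sku5 and 28.4 FPKM in WS in spaceflight and 24.8 FPKM in sku5 and 11.02 FPKM in WS on the ground in the authors' deposited tables. Its highest group was WS in spaceflight and its lowest WS on the ground. PLDALPHA1 (AT3G15730, on chromosome 3), the phospholipase D that releases the lipid signal phosphatidic acid from membranes, had 68.5 FPKM in sku5 and 109.6 FPKM in WS in spaceflight, and 101 FPKM in sku5 and 58.6 FPKM in WS on the ground in the authors' deposited tables. AT4G27280, a calcium-binding protein with an EF-hand, had 29.8 FPKM in sku5 and 48.8 FPKM in WS in spaceflight, and 47.9 FPKM in sku5 and 30.5 FPKM in WS on the ground in the authors' deposited tables. In AT4G27280 the levels changed places almost exactly: sku5 in spaceflight and WS on the ground were 1.03-fold apart, and WS in spaceflight and sku5 on the ground 1.02-fold apart.

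**Figure D2:**
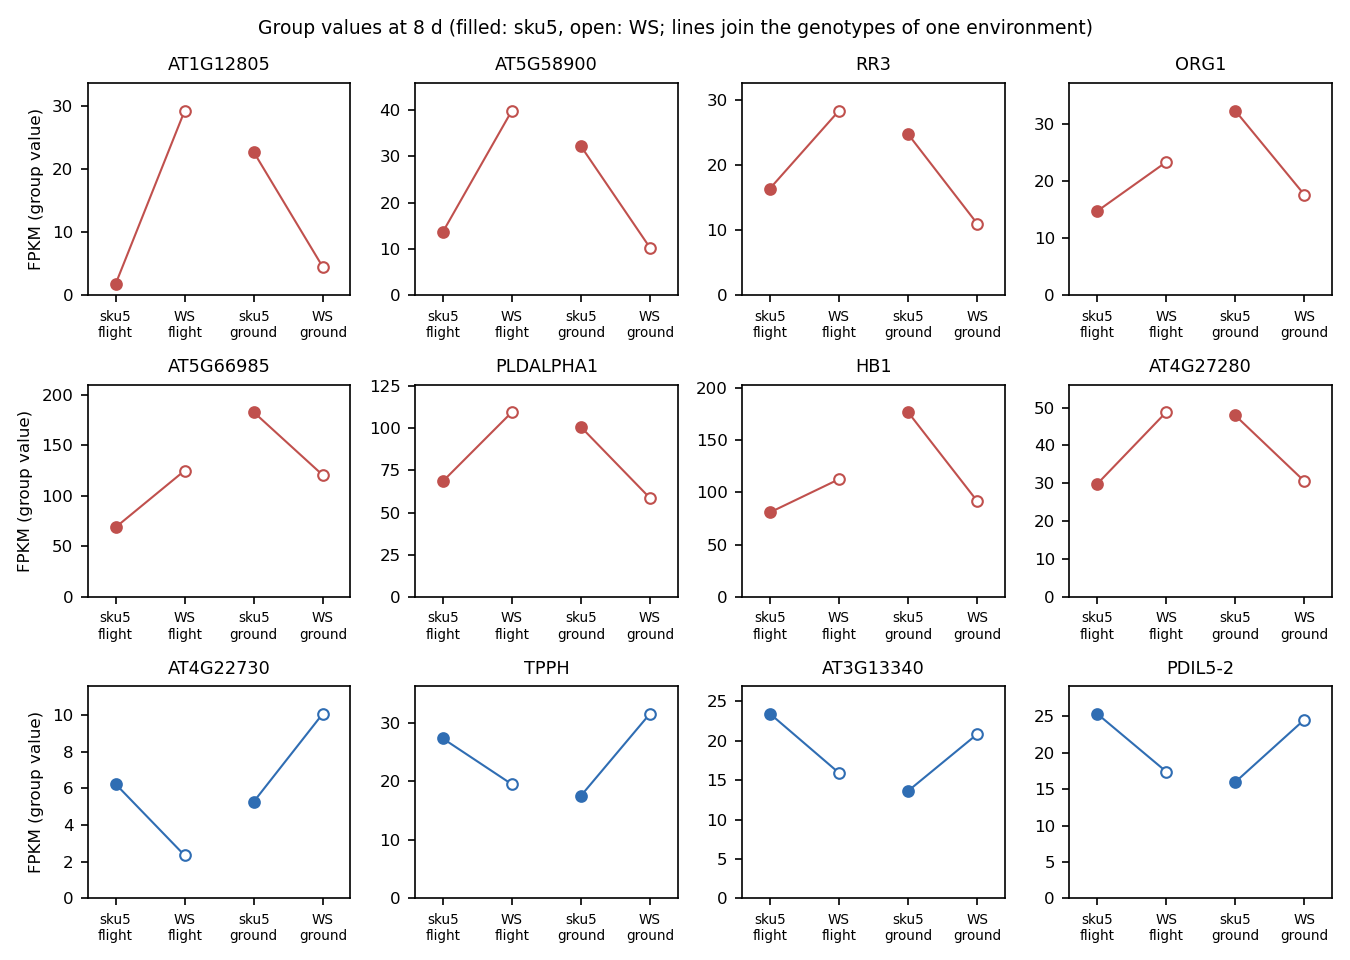
Group values in FPKM at 8 d (vertical axis, from 0) for the 8 loci with the largest reversal among those lower in sku5 in spaceflight (top rows) and the 4 with the largest reversal in the other direction (bottom row), with sku5 filled and WS open. Lines join the genotypes of one environment and slope one way in spaceflight and the other way on the ground in every panel, as the rule requires, and AT1G12805 has the widest span as a fold among these 12 panels, at 1.80 to 29.3 FPKM.

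Some of these genes carry a second locus. The authors' tables give 3 of the 32 named genes (RR3, PLDALPHA1 and AT4G11320) a further locus with the same gene name and the same coordinates, and the division of reads between such loci is not known here. For PLDALPHA1 the second locus pointed the other way: in the authors' deposited table it stood at 59.7 FPKM in sku5 and 29.6 FPKM in WS in spaceflight, 2.02-fold higher in sku5 (q = 0.00182). Its log2 ratio of spaceflight over ground at 8 d was -0.57 in WS (q = 0.0480) and 0.68 in sku5 (q = 0.00136). The reversed locus had 0.89 in WS and is not listed for spaceflight in sku5. The second locus of AT4G11320 was 2.24-fold lower in sku5 in spaceflight, at 48.1 FPKM in sku5 and 108 FPKM in WS in the authors' deposited table (q = 0.00826), while the reversed locus of that gene was higher there. Neither second locus is listed for genotype on the ground. The second locus of RR3 is listed for age alone, in WS in spaceflight, where it was higher at 8 d, with 23.3 FPKM at 8 d and 11.3 FPKM at 4 d in the authors' deposited table (q = 0.0437). Because of this split, the values of RR3, PLDALPHA1 and AT4G11320 belong to a locus and cannot be read as those of the whole gene.

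Among genes of oxygen and stress responses, HB1 (AT2G16060, on chromosome 2), the low-oxygen-induced haemoglobin that scavenges nitric oxide, had 80.8 FPKM in sku5 and 113 FPKM in WS in spaceflight, and 177 FPKM in sku5 and 91.7 FPKM in WS on the ground in the authors' deposited tables. The group that stood apart was sku5 on the ground, which was the highest, and the other 3 groups lay within 80.8 to 113 FPKM. DI19 (AT1G56280, on chromosome 1), a zinc-finger protein first known from drought, had 277 FPKM in sku5 and 351 FPKM in WS in spaceflight, and 313 FPKM in sku5 and 207 FPKM in WS on the ground in the authors' deposited tables. Here the group that stood apart was WS on the ground, the lowest. ORG1 (AT5G53450, on chromosome 5), named for its response to the transcription factor OBP3, had 14.7 FPKM in sku5 and 23.3 FPKM in WS in spaceflight, against 32.3 FPKM in sku5 and 17.59 FPKM in WS on the ground in the authors' deposited tables. Sku5 on the ground was again the highest of the 4 groups for ORG1.

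Next are given the loci annotated to the cell wall, the cell surface or secreted proteins, put together here from their annotations and not from a list. XGD1 (AT5G33290), which adds xylose to the pectin xylogalacturonan, had 5.64 FPKM in sku5 and 8.45 FPKM in WS in spaceflight, and 9.06 FPKM in sku5 and 5.44 FPKM in WS on the ground in the authors' deposited tables. Its spaceflight call had the largest q among the reversed loci, 0.0480 in the authors' deposited table. AGP3 (AT4G40090), an arabinogalactan protein of the cell surface, had 169 FPKM in sku5 and 284 FPKM in WS in spaceflight, and 302 FPKM in sku5 and 220.4 FPKM in WS on the ground in the authors' deposited tables. RGF3 (AT2G04025), which encodes a secreted peptide that maintains the root meristem, had 88.9 FPKM in sku5 and 119 FPKM in WS in spaceflight, and 125 FPKM in sku5 and 91.0 FPKM in WS on the ground in the authors' deposited tables. For RGF3 the low pair (sku5 in spaceflight, WS on the ground) lay 1.02-fold apart and the high pair 1.05-fold apart. AT5G57625, of the family of pathogenesis-related protein 1, had 106 FPKM in sku5 and 141 FPKM in WS in spaceflight, and 163 FPKM in sku5 and 118 FPKM in WS on the ground in the authors' deposited tables. AT5G01870, a lipid transfer protein, had the highest levels of the 21 loci, at 441 FPKM in sku5 and 608 FPKM in WS in spaceflight, and 632 FPKM in sku5 and 499 FPKM in WS on the ground in the authors' deposited tables. In both of these genes sku5 was the lowest group in spaceflight and the highest on the ground.

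The other named loci of this direction have little or no annotation. AT5G66985, an uncharacterized protein, had 68.9 FPKM in sku5 and 125 FPKM in WS in spaceflight, and 183 FPKM in sku5 and 121 FPKM in WS on the ground in the authors' deposited tables. WS had nearly the same level in both environments at AT5G66985, and sku5 held both extremes. Of the others, AT2G44670, of the DUF581 family, had 139 FPKM in sku5 and 189.8 FPKM in WS in spaceflight, and 226 FPKM in sku5 and 161 FPKM in WS on the ground in the authors' deposited tables. AT5G21020, uncharacterized, had 289.8 FPKM in sku5 and 414 FPKM in WS in spaceflight, and 399 FPKM in sku5 and 305 FPKM in WS on the ground in the authors' deposited tables. AT1G19960, AT2G46490 and AT2G18162 had closely similar patterns. For AT1G19960, annotated as a transcription factor, the authors' deposited tables gave 99.5 FPKM in sku5 and 145 FPKM in WS in spaceflight, and 142 FPKM in sku5 and 99.4 FPKM in WS on the ground. The uncharacterized AT2G46490 had 93.9 FPKM in sku5 and 148 FPKM in WS in spaceflight, and 132 FPKM in sku5 and 93.4 FPKM in WS on the ground in the authors' deposited tables. AT2G18162, which was not found in the RefSeq annotation, had 121 FPKM in sku5 and 168 FPKM in WS in spaceflight, and 163 FPKM in sku5 and 112 FPKM in WS on the ground in the authors' deposited tables. In these 3 genes sku5 in spaceflight and WS on the ground lay 1.00-fold to 1.08-fold apart, and WS on the ground was the lowest group.

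The last 2 of the 21 loci lie in the mitochondrial genome and have no gene name. The locus that starts at position 107034 had 5.44 FPKM in sku5 and 7.41 FPKM in WS in spaceflight, and 5.87 FPKM in sku5 and 3.32 FPKM in WS on the ground in the authors' deposited tables. The locus that starts at 187824 had 18.0 FPKM in sku5 and 23.9 FPKM in WS in spaceflight, and 18.7 FPKM in sku5 and 10.6 FPKM in WS on the ground in the authors' deposited tables. At both loci WS on the ground was the low group, and the levels of sku5 in the 2 environments were close. This low level in WS on the ground extended over the listed mitochondrial loci: of 13 such loci, 9 were higher in sku5 than in WS on the ground and 0 lower, and 11 were higher in spaceflight than on the ground in WS, in the authors' deposited tables. In sku5, 0 of the 13 were listed for spaceflight. For genotype in spaceflight 2 of the 13 are listed, 0 higher and 2 lower in sku5, and they are the 2 reversed loci themselves. Whether the mitochondrial share of the libraries moved other values of WS on the ground was not tested.

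The 13 loci of the other direction were led by AT4G22730, a receptor-like kinase with leucine-rich repeats on chromosome 4. It had 6.24 FPKM in sku5 and 2.34 FPKM in WS in spaceflight, and 5.28 FPKM in sku5 and 10.1 FPKM in WS on the ground in the authors' deposited tables. Both extremes were WS groups, and sku5 differed little between the environments. TPPH (AT4G39770, on chromosome 4), a phosphatase that makes trehalose from its phosphate, had 27.3 FPKM in sku5 and 19.5 FPKM in WS in spaceflight, and 17.5 FPKM in sku5 and 31.5 FPKM in WS on the ground in the authors' deposited tables. Its log2 ratio in the authors' deposited tables was 0.49 (SE 0.30, q = 0.0221) in spaceflight and -0.85 (SE 0.32, q = 0.00381) on the ground. The spaceflight ratio of TPPH was among the 17 under 2 of this rough SE, which is not calibrated.

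Several of the 13 loci encode proteins of RNA and protein metabolism. EIF4A-III (AT3G19760), an RNA helicase of the exon junction complex, had 102 FPKM in sku5 and 69.3 FPKM in WS in spaceflight, and 71.0 FPKM in sku5 and 92.6 FPKM in WS on the ground in the authors' deposited tables. PDIL5-2 (AT1G35620), of the protein disulfide isomerases that help secreted proteins fold, had 25.4 FPKM in sku5 and 17.42 FPKM in WS in spaceflight, and 16.0 FPKM in sku5 and 24.6 FPKM in WS on the ground in the authors' deposited tables. In both genes sku5 in spaceflight was the highest group. AT5G60390, a translation elongation factor of the EF-Tu family, had 2228 FPKM in sku5 and 1615 FPKM in WS in spaceflight, and 1467 FPKM in sku5 and 1821 FPKM in WS on the ground in the authors' deposited tables. This gene has near-identical copies in the genome, and its reversal was the smallest of all 34, 0.78 on the log2 scale with an SE of 0.36. AT4G11320, a papain-type cysteine protease with a close copy beside it, had 142 FPKM in sku5 and 97.5 FPKM in WS in spaceflight, and 144 FPKM in sku5 and 189 FPKM in WS on the ground in the authors' deposited tables at the reversed locus. Sharing of reads between copies makes the values of AT5G60390 and AT4G11320 uncertain.

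Metabolic genes and proteins of less defined function completed this direction. BCAT3 (AT3G49680), a plastid aminotransferase of branched-chain amino acid and methionine-derived glucosinolate metabolism, had 98.6 FPKM in sku5 and 73.5 FPKM in WS in spaceflight, and 65.4 FPKM in sku5 and 84.2 FPKM in WS on the ground in the authors' deposited tables. AT3G23940, of the dehydratase family, had 45.5 FPKM in sku5 and 34.6 FPKM in WS in spaceflight, and 22.9 FPKM in sku5 and 30.4 FPKM in WS on the ground in the authors' deposited tables. At AT3G23940 both spaceflight levels were above both ground levels. AT2G34040, an apoptosis inhibitory protein of the API5 family, had 30.5 FPKM in sku5 and 20.0 FPKM in WS in spaceflight, and 17.64 FPKM in sku5 and 25.7 FPKM in WS on the ground in the authors' deposited tables. The WD40 repeat protein AT3G13340 had 23.4 FPKM in sku5 and 15.9 FPKM in WS in spaceflight, and 13.6 FPKM in sku5 and 20.8 FPKM in WS on the ground in the authors' deposited tables. In AT2G34040 and AT3G13340 the lowest group was sku5 on the ground.

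The remaining 3 are AT1G61670, AT2G04280 and AT1G60770. AT1G61670, of a family of membrane proteins with seven-transmembrane receptors, had 31.1 FPKM in sku5 and 23.4 FPKM in WS in spaceflight, and 23.0 FPKM in sku5 and 33.1 FPKM in WS on the ground in the authors' deposited tables. The calcium ion-binding protein AT2G04280 had 43.2 FPKM in sku5 and 33.1 FPKM in WS in spaceflight, and 30.1 FPKM in sku5 and 40.0 FPKM in WS on the ground in the authors' deposited tables. AT1G60770, with tetratricopeptide repeats, had 49.0 FPKM in sku5 and 37.9 FPKM in WS in spaceflight, and 29.2 FPKM in sku5 and 39.2 FPKM in WS on the ground in the authors' deposited tables. The 2 loci with opposite directions that were left out by name are FTM1 (AT1G43800), at 5.04 FPKM in sku5 and 22.8 FPKM in WS in spaceflight and 16.2 FPKM in sku5 and 4.19 FPKM in WS on the ground, and AT3G03270, at 120.0 FPKM in sku5 and 196 FPKM in WS in spaceflight and 206 FPKM in sku5 and 148 FPKM in WS on the ground, in the authors' deposited tables. The third gene left out, EARLI1 (AT4G12480), is listed for genotype on the ground alone.

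Which genotype moved between the environments was read from the authors' comparisons of spaceflight with ground at 8 d. These use the same libraries as the rule, so the counts describe the reversal and test nothing. In sku5, 28 of the 34 loci are listed, against 33.8% of all listed loci: 11 were higher in spaceflight, against 11.1%, and 17 lower, against 22.7%. In WS, 19 of the 34 are listed: 13 were higher in spaceflight, against 8.4% of all listed loci, and 6 lower, against 9.79%. The 17 loci lower in sku5 and the 13 higher in WS all belong to the 21 loci, and the 11 higher in sku5 and the 6 lower in WS all belong to the 13.

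Movement in both genotypes was called at 13 of the 34 loci, in opposite directions at each. At 15 loci the change was called in sku5 alone, at 6 in WS alone and at 0 in neither, but a change called in one genotype alone is not shown to differ from the other by that fact. Among these double calls were AT1G12805, AT5G58900, RR3, AT4G27280 and AGP3, which were lower in spaceflight in sku5 and higher in WS, and TPPH, PDIL5-2, EIF4A-III and AT1G61670, which were higher in sku5 and lower in WS. In the authors' deposited tables AT1G12805 had a log2 ratio of spaceflight over ground of -3.67 in sku5 and 2.69 in WS, and AT5G58900 one of -1.25 in sku5 and 1.94 in WS. Sku5 alone was called at HB1, with a log2 ratio of -1.14, at ORG1, with -1.15, and at AT5G66985, with -1.42, in the authors' deposited table. WS alone was called at DI19, with 0.75, at AT4G11320, with -0.97, and at AT4G22730, with -2.12, in the authors' deposited table. The same held for the 2 mitochondrial loci, with 1.14 and 1.16, and for the reversed locus of PLDALPHA1, with 0.89.

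**Figure D3:**
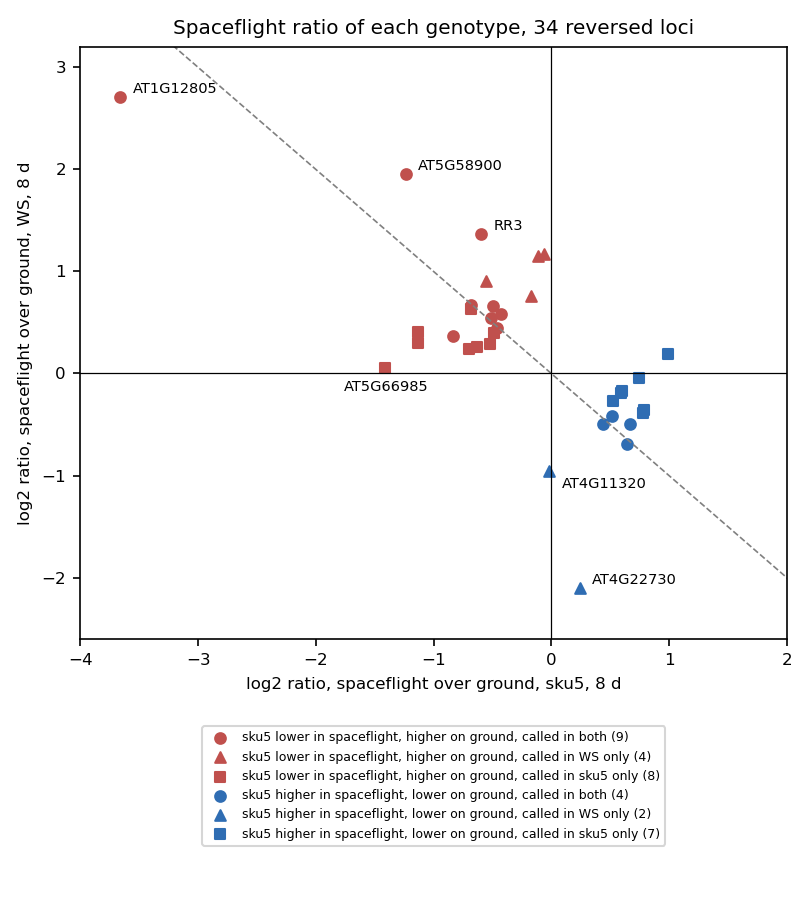
Log2 ratio of spaceflight over ground at 8 d in WS (vertical axis) against that in sku5 (horizontal axis) for the 34 reversed loci, computed from the group values of the authors' genotype tables, with the dashed line marking equal and opposite ratios. Circles are loci called for spaceflight in both genotypes (13), squares in sku5 alone (15) and triangles in WS alone (6). Each square lies nearer to the horizontal axis than to the vertical axis. The heights of squares and circles overlap, with the square of XGD1 at 0.64 and the circle of AGP3 at 0.37.

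Over all loci, 312 are listed for spaceflight at 8 d in both genotypes, and 35 of these, or 0.717% of all listed loci, went in opposite directions. The 13 reversed loci make up 37.1% of those 35, and the 35 include 38.2% of the reversed loci. Of the 35 loci, 24 were lower in spaceflight in sku5 and higher in WS, and 11 were the other way round. The rule and this overlap rest on the same 4 groups.

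The 4 group levels of many reversed loci fell into 2 pairs. At 19 of the 34 loci, sku5 in spaceflight lay within 1.2-fold of WS on the ground and WS in spaceflight lay within 1.2-fold of sku5 on the ground. This held at 11 of the 21 loci and 8 of the 13. The rule favours such pairs, since it asks for small or large ratios of opposite direction in these same 4 groups. Loci with the same direction could not have such pairs, since their ratios were too large for it. Accordingly 0 of the 120 had them. Each genotype stayed within 1.2-fold between environments at 46 of the 120 and at 0 of the 34, which the size of the reversals likewise fixes. The pairs are therefore a description and test nothing. The rule also limits which groups can be highest or lowest. For the 21 loci the highest can only be WS in spaceflight (12 loci) or sku5 on the ground (9 loci). Their lowest can only be sku5 in spaceflight (11 loci) or WS on the ground (10 loci). For the 13 loci the highest can only be sku5 in spaceflight (9 loci) or WS on the ground (4 loci). Their lowest can only be WS in spaceflight (3 loci) or sku5 on the ground (10 loci). Levels were set across the spaceflight and the ground genotype table, and a group's values in tables at 8 d that share it differed by at most 1.08%.

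Relatives of the reversed genes were looked at for the same pattern. Counts and medians of each list and family below include its reversed loci, whose directions the rule fixed. Over all listed loci, 580 were higher and 829 lower in sku5 in spaceflight, with a median log2 ratio of -0.38, and 318 were higher and 207 lower on the ground, with a median of 0.50. Low-oxygen genes had calls of opposite direction in the 2 environments, in part through loci already known to be reversed. Of 25 listed genes 11 have a locus in any table, and in the tables deposited by the authors 1 was called higher and 4 lower in sku5 in spaceflight, against 5 higher and 0 lower on the ground. Those called on the ground were FTM1, HB1, SUS4, LBD41 and AT3G03270. Those lower in spaceflight were FTM1, HB1, AT3G03270 and AT5G39890, an oxidase of the oxygen-sensing N-degron pathway. The one higher in spaceflight was AT1G19530, at 24.9 FPKM in sku5 and 14.1 FPKM in WS in the authors' deposited table (q = 0.0101). Thus 3 of the 11 are listed with opposite directions, and 2 of these are the ones left out by name. The median log2 ratio of the called low-oxygen genes, these 3 included, was -0.70 in spaceflight and 0.94 on the ground. Between environments, 5 were lower and 0 higher in spaceflight in sku5, and 3 were higher and 0 lower in WS, while all listed loci had 540 higher and 1108 lower in sku5 and 410 higher and 478 lower in WS.

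At 8 d, the type-A response regulators listed for genotype other than RR3 are listed in spaceflight alone. Of 10 genes, 0 were higher and 4 lower in sku5 in spaceflight (RR3, RR5, ARR3 and ARR15), with a median log2 ratio of -0.65, and RR3 alone was listed on the ground, higher. ARR15 had 8.95 FPKM in sku5 and 20.3 FPKM in WS in spaceflight, and RR5 had 35.5 FPKM in sku5 and 48.8 FPKM in WS, in the authors' deposited table. Between environments, RR3 and RR5 were lower in spaceflight in sku5, and RR3, RR17 and ARR3 were higher in WS, where ARR9 was lower.

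Arabinogalactan proteins had 16 loci listed of 30 genes. In sku5 relative to WS, 0 were higher and 9 lower in spaceflight, and 2 were higher and 4 lower on the ground in the authors' deposited tables, with median log2 ratios of -0.63 in spaceflight and -0.38 on the ground. AGP3 was the one listed with opposite directions, while AGP13, AGP21, AGP22 and the merged locus of AGP14 were lower in sku5 in both environments. On the ground AGP24 was the other one that was higher, with 1368 FPKM in sku5 and 919 FPKM in WS on the ground in the authors' deposited table. Root meristem growth factors had 4 of 10 genes listed, of which RGF3 and RGF2 were lower in sku5 in spaceflight and RGF3 higher on the ground. The DUF581 family had 10 loci listed of 18 genes, with 0 higher and 4 lower in sku5 in spaceflight. The median log2 ratio of these 4, AT2G44670 included, was -0.86, and AT2G44670 alone, higher, was listed on the ground.

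Smaller families had few calls. Of 3 haemoglobin genes, HB2 had 17.3 FPKM in sku5 and 51.3 FPKM in WS in spaceflight in the authors' deposited table and is not listed for genotype on the ground. Of 5 branched-chain aminotransferases, BCAT4 was higher in sku5 in spaceflight with BCAT3, at 264 FPKM in sku5 and 194 FPKM in WS in the authors' deposited table, and is not listed on the ground. Among 10 trehalose phosphate phosphatases TPPH is the one listed for genotype at 8 d. Among 12 phospholipase D genes, PLDGAMMA2 was lower in sku5 in spaceflight, at 8.46 FPKM in sku5 and 13.3 FPKM in WS in the authors' deposited table. A relative that is not listed for genotype in one environment has no known direction there.

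Other stress and nutrient lists held no reversed locus, although some had calls of opposite direction at different genes. Of 10 listed iron loci, 0 were higher and 3 lower in sku5 in spaceflight, and 1 was higher on the ground. That one is the merged locus with IRT1, the main iron importer of roots, which had 59.9 FPKM in sku5 and 12.2 FPKM in WS on the ground in the authors' deposited table. Of 8 clock loci, 0 were higher and 1 lower in sku5 in spaceflight, and 2 were higher on the ground. The gene GI, a clock-controlled regulator, was called for spaceflight in opposite directions, with a log2 ratio of -0.59 in sku5 and 0.72 in WS in the authors' deposited tables, but it is listed for genotype on the ground alone. Cold and dehydration genes went mostly one way: 1 was higher and 3 lower in sku5 in spaceflight, and 1 was higher and 3 lower on the ground. The lipid transfer group of EARLI1 and AZI1 had 0 higher and 1 lower in spaceflight and 2 higher and 0 lower on the ground. For thioredoxin h the counts were 0 higher and 2 lower in spaceflight and 1 higher and 0 lower on the ground, and for the SKU5 family 3 higher and 1 lower in spaceflight and 0 higher and 1 lower on the ground. The phosphate list had 0 called in spaceflight and 2 higher on the ground, the touch list 1 higher in spaceflight and 2 higher on the ground, the list of miR160 precursors and targets 1 lower in spaceflight and 0 on the ground, and the heat shock list 0 in both.

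Markers of seed, shoot and root tissue were looked at in the same 4 groups. Of 12 seed genes 8 have a locus in any table, and in sku5 5 of these were higher in spaceflight than on the ground, with a summed level of 255 FPKM in spaceflight and 3.93 FPKM on the ground in the authors' deposited table, where OLEO4 and SESA2 stood at 0 on the ground. For genotype in spaceflight the seed genes PAP85 and SESA2 summed to 29.8 FPKM in sku5 and 0 in WS in the authors' deposited table. No seed gene is listed for genotype on the ground or for spaceflight in WS at 8 d. Of 10 shoot genes, RBCS1A alone is listed for genotype, at 63.3 FPKM in sku5 and 98.5 FPKM in WS in spaceflight and 69.4 FPKM in sku5 and 96.5 FPKM in WS on the ground in the authors' deposited tables, the same direction in both. Of 10 root genes, CASP1 alone is listed for genotype at 8 d, at 262 FPKM in sku5 and 161 FPKM in WS on the ground in the authors' deposited table. For spaceflight at 8 d CASP1 is listed in sku5, at 155 FPKM in spaceflight and 265 FPKM on the ground in the authors' deposited table (q = 0.00436), and its part in the lower values of sku5 in spaceflight was not tested. The part of seed material in the values of sku5 in spaceflight was not tested.

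Roots at 4 d come from libraries that the rule did not use. For genotype on the ground at 4 d, 3 of the 34 loci (8.82%) are listed, against 7.8% of all listed loci (3.75% higher and 4.06% lower), so the share was near the background. DI19 was higher in sku5, at 422 FPKM in sku5 and 258 FPKM in WS in the authors' deposited table (q = 0.00558), and AT2G44670 was higher, at 231 FPKM in sku5 and 144 FPKM in WS (q = 0.0269). These are the directions that both genes had on the ground at 8 d. AGP3 was lower in sku5 at 4 d, at 273 FPKM in sku5 and 405 FPKM in WS in the authors' deposited table (q = 0.0461), which is its direction in spaceflight at 8 d. A genotype comparison for spaceflight at 4 d was not analysed here.

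Spaceflight was compared with ground at 4 d in each genotype. In sku5, 6 of the 34 are listed, against 20.6% of all listed loci: 3 were higher in spaceflight, against 12.3%, and 3 lower, against 8.34%. AT5G66985 had 80.2 FPKM in spaceflight and 144 FPKM on the ground, AT2G18162 had 115 FPKM in spaceflight and 172 FPKM on the ground, and AT2G44670 had 101 FPKM in spaceflight and 228 FPKM on the ground, by the authors' deposited table. Those 3 were lower in spaceflight in sku5 at 8 d as well. AT2G34040 was higher in spaceflight in sku5 at both ages, at 29.5 FPKM in spaceflight and 16.6 FPKM on the ground at 4 d in the authors' deposited table. AT5G21020 and AT5G01870 were higher in spaceflight at 4 d, with log2 ratios of 1.18 and 0.63 in the authors' deposited table, and lower at 8 d. In WS, 2 of the 34 are listed, against 2.62% of all listed loci (1.29% higher and 1.33% lower): AT5G01870, with a log2 ratio of 1.02, and AT5G57625, with -0.68, in the authors' deposited table. Neither is listed for spaceflight in WS at 8 d.

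**Figure D4:**
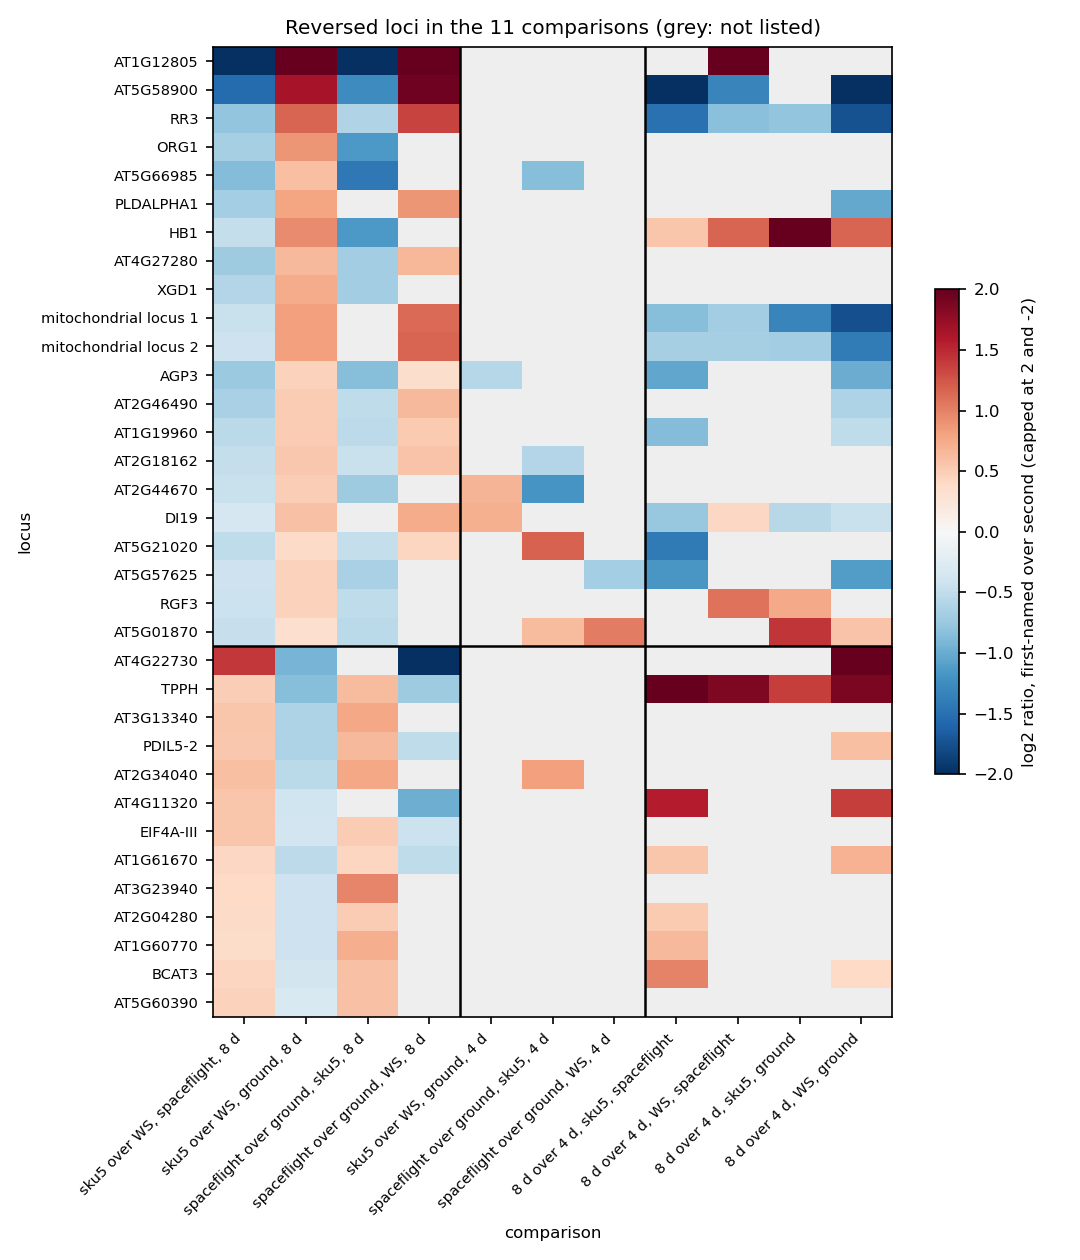
Log2 ratio of the first-named over the second-named group in each of the 11 comparisons (columns) for the 34 reversed loci (rows, with the 21 loci lower in sku5 in spaceflight above the line), from the authors' deposited tables, with grey where a locus is not listed and colours capped at 2 and -2. The genotype columns at 8 d are full by the rule, and the 3 columns at 4 d hold 3, 6 and 2 calls, where the shares of all listed loci are 7.8%, 20.6% and 2.62%.

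Age comparisons share their 8 d libraries with the rule and are given as a description. Between 8 d and 4 d, 16 of the 34 loci are listed in sku5 in spaceflight, against 36.4% of all listed loci (14.3% higher and 22.1% lower), and 9 in WS in spaceflight, against 22% (9.61% higher and 12.4% lower). On the ground 8 are listed in sku5, against 20.9% (10.5% higher and 10.3% lower), and 18 in WS, against 22.6% (10.5% higher and 12.1% lower). The 2 groups that were low at 8 d for the 21 loci were the ones where these loci were mostly lower at 8 d than at 4 d: 1 higher and 9 lower in sku5 in spaceflight, and 2 higher and 10 lower in WS on the ground. The counts for the 21 loci were 4 higher and 4 lower in WS in spaceflight and 3 higher and 4 lower in sku5 on the ground. The 13 loci had 6 higher and 0 lower in sku5 in spaceflight, 6 higher and 0 lower in WS on the ground, and 1 higher and 0 lower in each of the other 2 groups. The rule chose both sets by their ratios in these 8 d groups, so such splits are favoured by it and test nothing.

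For 6 of the 34 loci all 4 age comparisons were called, which gives their level in all 8 groups. The reversed locus of RR3 fell with age in every group, while its second locus rose in WS in spaceflight, as given above. In the authors' deposited tables RR3 at 4 d had 44.2 FPKM in sku5 and 45.7 FPKM in WS in spaceflight, and 40.1 FPKM in sku5 and 36.1 FPKM in WS on the ground. At 8 d RR3 had 15.7 FPKM in sku5 and 25.6 FPKM in WS in spaceflight, and 23.2 FPKM in sku5 and 10.8 FPKM in WS on the ground, by the authors' deposited tables of age. HB1 rose in every group. HB1 had 52.5 FPKM in sku5 and 45.5 FPKM in WS in spaceflight and 39.9 FPKM in sku5 and 40.0 FPKM in WS on the ground at 4 d in the authors' deposited tables, and its largest rise was in sku5 on the ground, 4.15-fold, against 1.48-fold in sku5 in spaceflight. TPPH rose 5.22-fold in sku5 in spaceflight, 3.65-fold in WS in spaceflight, 2.62-fold in sku5 on the ground and 3.70-fold in WS on the ground in the authors' deposited tables.

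DI19 was the one of these 6 whose age direction differed between groups. It had 452 FPKM in sku5 and 238 FPKM in WS in spaceflight at 4 d, and 433 FPKM in sku5 and 274 FPKM in WS on the ground at 4 d in the authors' deposited tables. At 4 d sku5 thus had the higher value in both environments, although the spaceflight pair comes from separate tables and was not tested. DI19 fell with age 1.70-fold in sku5 in spaceflight, 1.48-fold in sku5 on the ground and 1.35-fold in WS on the ground, and rose 1.33-fold in WS in spaceflight in the authors' deposited tables. The 2 mitochondrial loci fell with age in all 4 groups, the locus at 187824 by 2.64-fold in WS on the ground and by 1.58-fold to 1.61-fold in the other 3 in the authors' deposited tables. Across all tables the scale of a group's values differed by up to 10.8%, which applies to levels set across the age tables.

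AT1G12805 was called for age in WS in spaceflight alone. It stood at 26.5 FPKM at 8 d and 2.43 FPKM at 4 d in the authors' deposited table, 10.9-fold higher at 8 d. AT5G58900 was lower at 8 d than at 4 d in 3 groups, at 13.1 FPKM at 8 d and 52.0 FPKM at 4 d in sku5 in spaceflight, 36.0 FPKM at 8 d and 89.8 FPKM at 4 d in WS in spaceflight and 10.0 FPKM at 8 d and 85.7 FPKM at 4 d in WS on the ground in the authors' deposited tables. It is not listed for age in sku5 on the ground, the group with the highest level but one at 8 d. AT4G22730 was called for age in WS on the ground, at 9.85 FPKM at 8 d and 1.41 FPKM at 4 d in the authors' deposited table.

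Transcript length, a property that the rule did not use, differed between the directions. By the longest RefSeq transcript, 18 of the 21 loci lower in sku5 in spaceflight had a median of 928 nt and 2 exons, with a range of 560 to 2938 nt. The 13 loci of the other direction had a median of 2022 nt and 6 exons, with a range of 1410 to 2672 nt. All listed loci had a median of 1588.5 nt and 4 exons. A single exon was found at 7 of the 18 loci, 1 of the 13 and 700 of 4446 listed loci with a length. The same split in length held for all loci listed for genotype in spaceflight. Their median was 2306 nt where sku5 was higher, with a single exon at 34 of 544. Where sku5 was lower it was 903 nt, with a single exon at 169 of 757. On the ground as well the loci higher in sku5 were the longer ones, with a median of 2033 nt, against 944.5 nt where sku5 was lower. The median of each direction of reversal lay nearer to that of its spaceflight direction than to that of its ground direction. Among the 120 loci with the same direction, the median was 1900 nt where sku5 was higher and 783 nt where sku5 was lower. These lengths are given with no test, and FPKM values were divided by length by the authors.

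**Figure D5:**
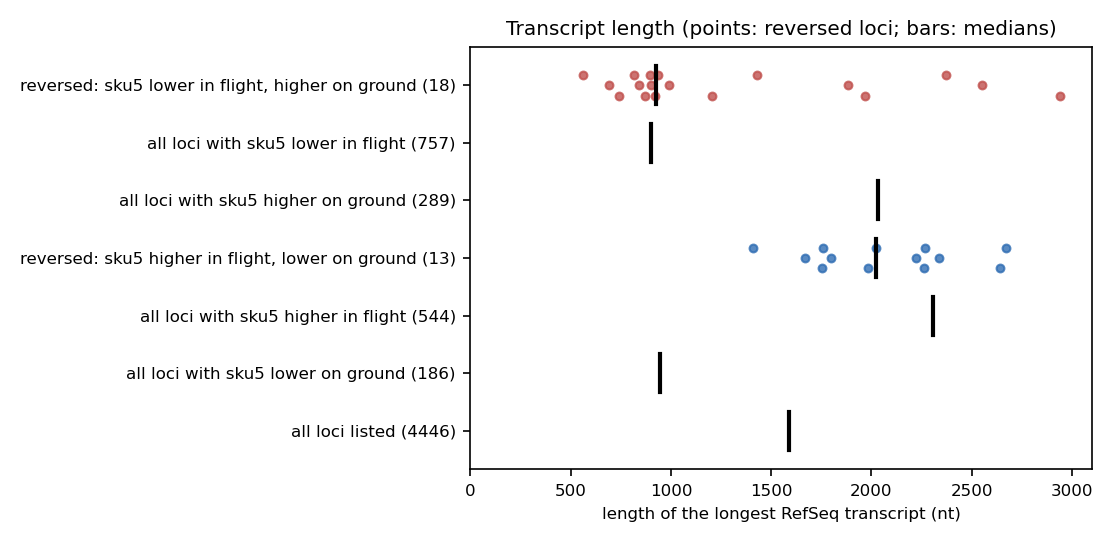
Length in nt of the longest RefSeq transcript (horizontal axis) of the reversed loci by direction (points) with the median of each set (bars), beside the medians of all loci listed for genotype at 8 d by environment and direction, with the number of loci in brackets. The reversed loci lower in sku5 in spaceflight have a median of 928 nt and those of the other direction one of 2022 nt.

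The named loci lie on all 5 chromosomes, with 6 on chromosome 1, 8 on chromosome 2, 5 on chromosome 3, 5 on chromosome 4 and 8 on chromosome 5. Levels spanned 1.80 to 2228 FPKM over the 34 loci and the 4 groups at 8 d. The median of the loci's mean level was 115 FPKM for the 21 loci and 33.4 FPKM for the 13.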

How the data were processed

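Whole-root RNA of 32 samples in 8 groups was compared in 11 tables that the authors deposited, each setting a pair of groups against each other with Cuffdiff. Per the submitters' processing notes the tools were STAR 2.5.1b, Trimmomatic 0.36, Cufflinks, Cuffdiff, Picard and FastQC 0.11.2. Neither the role of each tool nor the genome build is named in the sources used here. Each group has 1 FPKM value at a locus, per the file headers. Their fold change is deposited on the log2 scale, and their test statistic is a deposited score. Each locus has a p-value and a q-value by the authors, and all listed loci have a q-value under 0.05. Samples were grouped by the labels' genotype, environment and age, and the labels describe the samples of a group as biological replicates.

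Directions were turned so that sku5 stands over WS, spaceflight over ground and 8 d over 4 d, using pandas 2.3.3. The selection was tested on simulated data. The reversed loci and the gene lists were chosen with earlier results of these data known, and the 8 families after the loci were known. The named genes are the 12 loci of each direction with the largest difference of log2 ratios, the 3 with the smallest, those called for genotype at 4 d and those on a list, and the others were named to account for every locus. Shares of called loci have as denominator the 4882 loci of the tables together, since the number of genes tested is not known. Where a locus is counted as called, it is in the authors' list.

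RefSeq (TAIR10.1) gave names, products, transcript lengths and exons for 31 of the 34 loci. Only 276 of 4446 single genes overlapped their RefSeq coordinates, so the reference is another build. Promoter motifs, which had been planned, were therefore not analysed and no sequence is shown. Alternatives were a q-value under 0.01, a minimum of 1.5-fold, single gene names, matching by gene name, the 3 genes kept, a mean of at least 1 FPKM, and 1 FPKM added with at least 1.2-fold.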

Additional observations from a re-analysis of the deposited data

How the results depend on the processing

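The number of reversed loci depends on the threshold. Requiring a q-value under 0.01 in both environments left 15 loci, 13 lower in sku5 in spaceflight and 2 higher, and requiring at least 1.5-fold in both left 8 loci, 7 lower and 1 higher. Fixing names, matching by gene name, keeping the 3 genes, a floor of 1 FPKM and an added 1 FPKM gave 30 to 36 loci. With a q-value under 0.01, calls for genotype on the ground at 4 d numbered 1, and for spaceflight in WS at 4 d 0, by Cuffdiff, while the other counts of calls stayed within 1.5 times. No paired analysis was possible because the tables hold 1 value per group. Leaving out replicates was not run for the same reason, nor was the promoter motif count, since the reference is of another build. Without values per library, spread, depth and outlying samples cannot be judged, and a locus absent from a table cannot be called unchanged.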
